A study of Danio rerio with 12 samples.

Results

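The zebrafish genome holds several copies of the cryptochrome gene, and 6 of them, cry1a, cry1b, cry2a, cry2b, cry3 and cry4, were followed here in the pineal gland. They were chosen as a gene family, with earlier results of these data known, and the rule uses no measured value: for each gene the probe set that the study names for it was taken, together with every other probe set of the same gene. This gave 6 of 8793 genes and 8 of 15502 probe sets on the Affymetrix array. The study had already called cry2a and cry3 circadian from these same arrays. The calls of their named probe sets below are thus no independent result. RNA came from adult zebrafish of both sexes and of the line Tg(aanat2:EGFP)Y8, 0.5 to 1.5 years old, whose pineal glands were dissected. They were raised at 28 °C in a cycle of 12 h light and 12 h dark and were moved to constant darkness for sampling. All fish carried the transgene, in which regulatory regions of aanat2 drive green fluorescent protein, so that the gland could be found under the microscope. Glands were collected every 4 h over 48 h, starting at circadian time (CT) 14, and 12 glands were pooled for each of 12 arrays. A first daily cycle thus had 1 array each at CT14, CT18, CT22, CT2, CT6 and CT10, and so had a second. Times are those of the deposited labels. CT0 marks the start of the subjective day and CT12 that of the subjective night.

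Cryptochromes are the flavoproteins that descend from light-activated DNA repair enzymes, the photolyases. In the vertebrate clock the activators Clock and Bmal switch on the period and cryptochrome genes, and the period and cryptochrome proteins then enter the nucleus and shut their own activators off. How fast cryptochrome protein is tagged with ubiquitin and destroyed helps to set the length of the cycle. In zebrafish the family was enlarged by gene duplication. Cry1a, Cry1b, Cry2a and Cry2b repress Clock and Bmal in reporter assays, whereas Cry3 and Cry4 do not. Photoreceptor cells of the fish pineal gland make melatonin at night.

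The gene names are those of the study, and current RefSeq symbols differ for some of them: cry2a is listed as cry3a, cry2b as cry3b and cry3 as cry2. All 6 genes matched a RefSeq entry. In the RefSeq assembly GRCz12tu, cry2b and cry4 lie on 1 chromosome with 1 protein-coding gene between them. The probe set used for cry2a has no gene symbol in the platform's annotation and rests on the study's naming. A second probe set is annotated to cry2a itself. The gene cry3 was also measured by a pair of probe sets. A probe set was tested only if its highest array exceeded a normalized intensity of 63.9, a limit that removed the dimmest 25%. Of the 8 cryptochrome probe sets, 6 passed, covering 5 genes. The probe set of cry2b and the second one of cry2a did not pass.

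Of the 11 listed markers of pineal photoreceptors, 8 had a probe set, and all of these but unc119b exceeded the filter limit on every array. Their summed normalized intensity ran between 14243 and 27746, and exorh, the pineal rhodopsin, lay between 695 and 2203 on all arrays. The largest medians in this sum were those of gngt1 (9897) and pde6c (6661). The lowest markers were otx5, between 98.8 and 273, and unc119b, between 14.0 and 60.7. The array of CT6 in the second cycle stood apart. It had the lowest photoreceptor sum, and it had the highest sums of the markers of skin (8 of 9 measured, 16712 against a median of 2900.0 over the arrays), of bone and connective tissue (4 of 7 measured, 15393 against 1517) and of immune cells (7 of 9 measured, 17210 against 3460). The sum of blood markers (3 of 5 measured) was lowest there, at 2628 against a median of 5635. Markers of brain neurons (6 of 7 measured) were highest at CT18 of the second cycle, at 10918 against a median of 5316, and those of muscle (5 of 6 measured) at CT14 of the first, at 654 against 234. The hybridization controls of the last 4 arrays, CT22, CT2, CT6 and CT10 of the second cycle, were brighter than those of the 8 before, with geometric means of 837 to 1314 against 515 to 728. Each value comes from 1 pool, so the spread between both arrays of a circadian time holds differences between pools, days and hybridizations together, and the number of arrays limits the precision. In pooled tissue, fewer cells of a type and less RNA per cell cannot be told apart.

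Of the 5 cryptochromes tested, 2 were called as having a 24-h rhythm. These were cry2a, with its peak late in the subjective day, and cry3, with its peak in the middle of the subjective night. The log2 values of all 12 arrays were modelled in limma by cosine and sine terms with a period of 24 h, and p-values were adjusted by Benjamini-Hochberg over 11625 probe sets. In this test 60 probe sets, 0.516% of those tested, had an adjusted p under 0.05. The g-factor, the share of the variance of a profile that lies at 24 h, gave the same pair of genes. It rests on the same arrays and the same 24-h terms, so this is not a separate test. At a true-positive rate of 90% estimated from shuffled profiles, 56 probe sets (0.482%) reached the g-factor needed, among them those of cry2a (0.859) and cry3 (0.867). The g-factors of the others were 0.590 for cry1b, 0.255 for cry4 and 0.0236 for cry1a. A gene that was not called is not thereby shown to lack a rhythm. By RNA sequencing of pineal glands from other fish, the study called each of the cryptochromes followed here circadian.

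**Figure D1:**
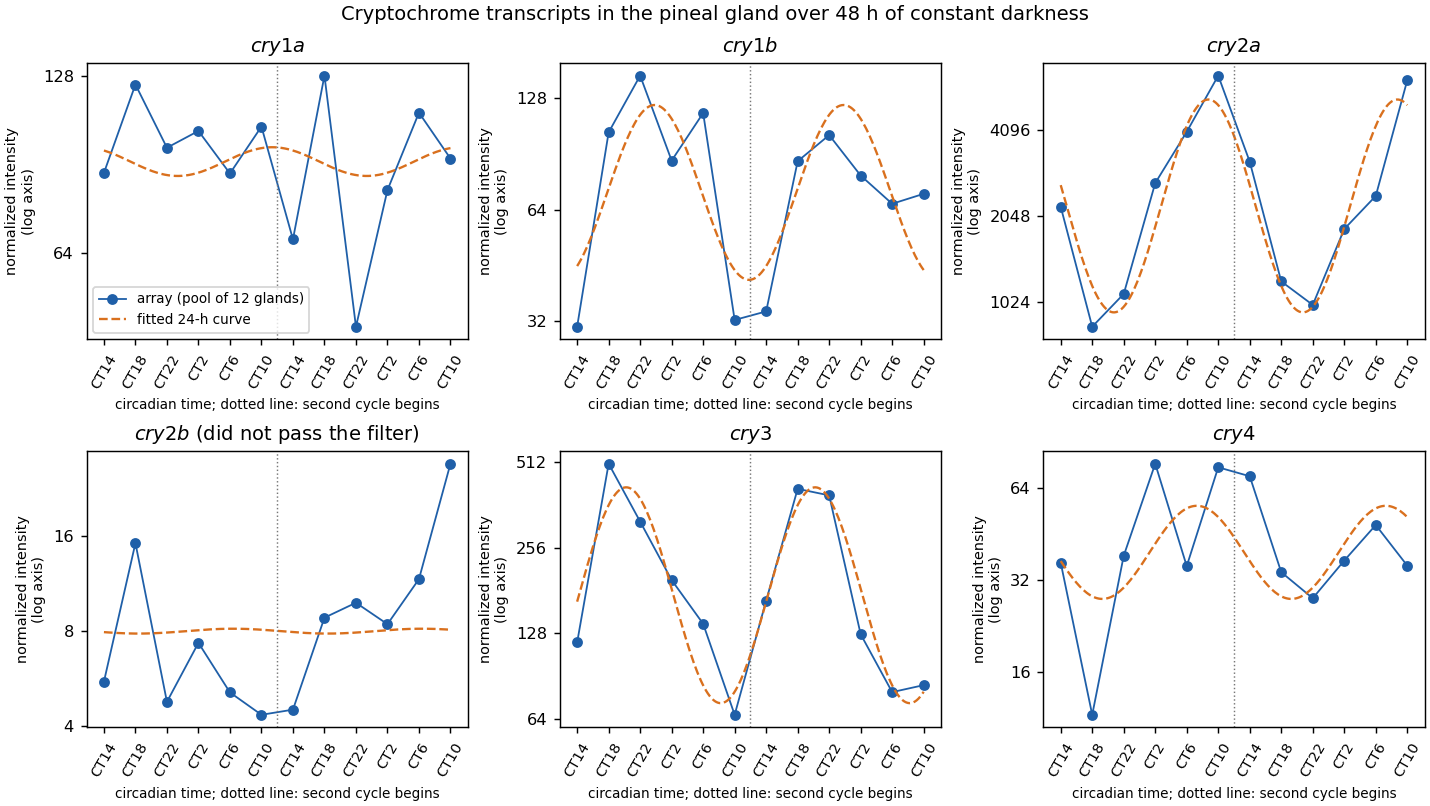
Normalized intensity (log axis, each panel with its own range) of the named probe set of each cryptochrome against circadian time, with 1 point per array and the fitted 24-h curve dashed; the dotted line marks the start of the second cycle. The curve follows the points in cry2a and cry3, whose fitted folds were 5.59 and 5.73, and is nearly flat in cry1a, with a fold of 1.12; the curve of cry2b comes from the fit without a filter.

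cry2a, a repressor of Clock and Bmal, was highest at CT10 in both cycles and lowest in the middle to late night. Its normalized intensities at CT14, CT18, CT22, CT2, CT6 and CT10 were 2207, 837, 1091, 2673, 4045 and 6371 in the first cycle, followed by 3176, 1207, 998, 1844, 2409 and 6134 in the second. Both arrays of CT10 lay above all others, and the 4 arrays of CT18 and CT22 lay below all others. Ordered by mean, CT10 came first with 6253 ± 168 (SD, n = 2), apart from CT6 with 3227 ± 1157 (SD, n = 2). CT6, CT14 and CT2 followed, each overlapping with the next, and CT2 lay apart from CT22. The arrays of CT22 (1045 ± 65.5; SD, n = 2) and CT18 (1022 ± 262; SD, n = 2) overlapped with each other. The fitted peak lay at CT8.75 with a standard error of 0.463 h, and the fitted peak was 5.59 times the trough (95% interval 3.57 to 8.75, adjusted p = 0.00592 from limma).

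The rhythm of cry2a was called with each array left out in turn, with folds from 5.04 to 6.64 and adjusted p from limma of 0.000312 to 0.0362. The lowest of these p-values was reached without the array of CT6 of the second cycle, where cry2a read 2409, against 4045 at CT6 of the first cycle. On the linear scale in place of log2 the call was lost (adjusted p = 0.0771 from limma). The other probe set annotated to cry2a did not follow this profile. Its normalized intensities lay between 3.68 and 40.4 with a median of 9.90, and the highest array was CT10 of the first cycle, whereas CT10 of the second cycle read 5.74. In the fit without a filter its fold was 1.80 (adjusted p = 0.877 from limma).

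cry3, which does not repress Clock and Bmal in reporter assays, was highest in the night and lowest late in the day, nearly opposite to cry2a. Its normalized intensities at CT14, CT18, CT22, CT2, CT6 and CT10 were 119, 505, 316, 197, 138 and 66.3 in the first cycle, followed by 167, 412, 391, 127, 79.7 and 84.3 in the second. The 4 arrays of CT18 and CT22 were the highest, with no overlap with the other 8. CT18 led with 459 ± 65.7 (SD, n = 2), apart from CT22 with 354 ± 52.8 (SD, n = 2), which in turn lay apart from CT2 with 162 ± 49.5 (SD, n = 2). CT2, CT14, CT6 and CT10 followed, and each overlapped with the next. The fitted peak lay at CT20.2 with a standard error of 0.473 h, and the fold was 5.73 (95% interval 3.60 to 9.12, adjusted p = 0.00635 from limma).

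The call of cry3 held with each array left out in turn, with folds from 5.02 to 6.94 and adjusted p from limma of 0.00311 to 0.0376. It was lost on the linear scale (adjusted p = 0.0521 from limma) and when circadian time was fitted as a factor with 6 levels (0.0682). The second probe set of cry3 had its highest arrays at CT18 too, with 496 in the second cycle and 474 in the first. The lowest array was CT14 in the second cycle with 195 and CT10 in the first with 125. Its fitted peak at CT19.9 (standard error 0.927 h) lay close to that of the other probe set, but its fold was 2.29 (95% interval 1.49 to 3.52). It did not pass the test (unadjusted p = 0.00395, adjusted p = 0.226 from limma). The ratio of both probe sets of cry3 had a 24-h component of its own, with a g-factor of 0.726 (permutation test, p = 0.00436). The fold of a cryptochrome thus depended on the probe set that measured it. This comparison was chosen after the values had been seen.

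**Figure D2:**
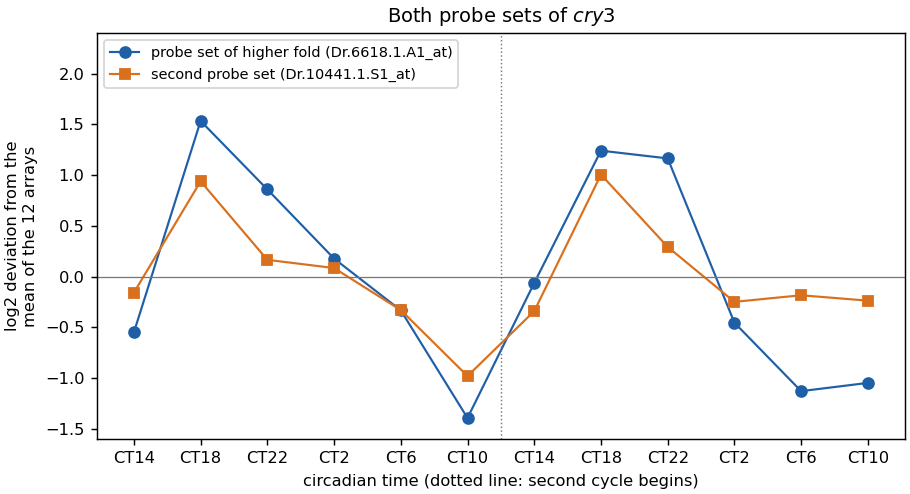
Log2 deviation of each array from the mean of the 12 arrays, for both probe sets of cry3, against circadian time; each point is 1 array. Both were highest at CT18 in both cycles, and at CT6 and CT10 of the second cycle the named probe set (79.7 and 84.3 normalized intensity) lay far below its mean while the second (217 and 209.5) lay near its own.

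cry1b, a repressor, had its highest array at CT22 in both cycles and its lowest at CT14 in both cycles. Its normalized intensities at CT14, CT18, CT22, CT2, CT6 and CT10 were 30.9, 104, 147, 86.8, 117 and 32.2 in the first cycle, followed by 34.0, 86.5, 102, 79.2, 66.4 and 70.6 in the second. At CT14 both arrays were low, with 32.4 ± 2.18 (SD, n = 2). At CT10 they were far from each other, with 51.4 ± 27.2 (SD, n = 2). Of the neighbours in the order of means, CT22, CT18, CT6, CT2, CT10 and CT14, CT2 and CT10 alone did not overlap.

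The fitted curve of cry1b had a fold of 2.97 (95% interval 1.61 to 5.48) with its peak at CT23.8, standard error 1.004 h. It did not pass the test over all probe sets (unadjusted p = 0.00708, adjusted p = 0.295 from limma). With single arrays left out the adjusted p ran from 0.198 to 0.560, and without the last 4 arrays the fold was 4.97 (adjusted p = 0.0952 from limma). In no alternative was cry1b called.

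cry1a, the repressor whose transcription light induces in zebrafish cells, had no 24-h rhythm that this test could detect. Its normalized intensities at CT14, CT18, CT22, CT2, CT6 and CT10 were 87.6, 124, 96.6, 103, 87.4 and 105 in the first cycle, followed by 67.6, 128, 48.0, 81.9, 111 and 92.7 in the second. CT18 was the highest time in both cycles, with 126 ± 3.08 (SD, n = 2), and lay apart from the next, CT6, with 99.1 ± 16.6 (SD, n = 2). All later neighbours in the order overlapped. At CT22 the arrays differed most, with 48.0 in the second cycle and 96.6 in the first. The fitted fold, which cannot go below 1, was 1.12 (95% interval 1 to 1.86, adjusted p = 0.967 from limma). The fitted peak had a standard error of 8.03 h. With so small a fitted rhythm the interval is approximate, so no fold is excluded by it.

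cry4, which like Cry3 lacks repressor activity in reporter assays, had its lowest mean at CT18 and varied strongly between the cycles. Its lowest array was CT18 in the first cycle but CT22 in the second, and its median of 36.7 lay below the filter limit of 63.9. Its normalized intensities at CT14, CT18, CT22, CT2, CT6 and CT10 were 36.4, 11.5, 38.4, 76.9, 35.5 and 74.9 in the first cycle, followed by 70.0, 33.9, 27.8, 37.0, 48.4 and 35.6 in the second. The arrays of every circadian time overlapped with those of its neighbour in the order of means, from CT2 with 57.0 ± 28.2 (SD, n = 2) to CT18 with 22.7 ± 15.8 (SD, n = 2). The fitted fold was 2.02 (95% interval 1 to 4.65) with a peak at CT7.28, standard error 2.11 h (adjusted p = 0.676 from limma). The fold of cry1b, 2.97, lies inside this interval. With an offset of 32 added to the intensities the fold of cry4 was 1.41.

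cry2b, the remaining repressor, stayed at the low end of the scale on every array, with a lowest value of 4.35, a median of 7.89 and a highest of 27.1. The highest array was CT10 of the second cycle and the lowest CT10 of the first, so the same circadian time held both extremes. Its probe set was below the filter, and in the fit without a filter the fold was 1.04 (95% interval 1 to 3.10, adjusted p = 0.999 from limma). No detection calls were used here, so whether these values stood above background was not tested.

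Pairs of cryptochromes differed in their daily course most clearly where cry2a or cry3 was one of them. Both genes of a pair are read on the same 12 arrays, so a difference in phase or in size of the rhythm appears as a 24-h component in the log2 ratio of the 2 genes, whatever their levels. All 15 pairs were compared by a permutation test of the g-factor of this ratio, one-sided because the g-factor takes any phase, with 100000 shuffles of the array order and Benjamini-Hochberg adjustment over the pairs, and 9 passed. Of the 10 pairs in which both genes had passed the filter, 8 passed. The ratio of cry2a to cry3 had the highest g-factor, 0.920, and changed 31.8-fold over the day (permutation p = 5e-05, adjusted p = 0.00075). It was highest at CT8.49. The fitted peak of cry2a came 11.5 h before that of cry3, with a standard error of 0.688 h. This error takes the cosine shape as given. The highest arrays, CT10 for cry2a and CT18 for cry3 in both cycles, lay closer together than the fitted peaks.

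The fitted curve of cry1b, which was not called, had its peak at another time than those of both these genes. Its fitted peak lay 8.92 h before that of cry2a on the 24-h circle, with a standard error of 1.13 h, and the ratio had a g-factor of 0.819 (permutation test, adjusted p = 0.0043). It lay 3.60 h after that of cry3, with a standard error of 0.963 h, and here the g-factor was 0.834 (adjusted p = 0.00495 by permutation). Both ratios passed, but each also holds the rhythm of cry2a or cry3, and the test does not separate timing from fold. As the curve of cry1b was not called, no difference in timing is drawn from these peaks. The pair test was adjusted over 15 pairs, and the limma test, which cry1b alone did not pass, over 11625 probe sets. cry1a, with no detectable rhythm, differed from cry3 (g-factor 0.801, adjusted p = 0.0043 by permutation), from cry2a (0.685, adjusted p = 0.0157) and from cry1b (0.603, adjusted p = 0.0298). Since the fitted curve of cry1a was nearly flat, these ratios mainly carry the course of the other gene.

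cry4 differed from cry3 (g-factor 0.694, adjusted p = 0.00945 by permutation) and from cry2a (0.572, adjusted p = 0.0349). The ratio of cry2b to cry3 also passed (0.583, adjusted p = 0.0234 by permutation), but cry2b lay below the filter, so this ratio does not compare 2 measured rhythms. Between cry2a and cry4 the fitted peaks were 1.47 h apart with a standard error of 1.93 h, so the timing of these genes was not distinguishable here. The remaining 6 pairs, all of which held cry2b or cry4, had adjusted p-values from 0.0951 to 0.976. For cry1b and cry4 the g-factor was 0.383 (adjusted p = 0.147 by permutation). Their fitted peaks were 7.46 h apart with a standard error of 2.19 h, but neither curve was called, so no difference in timing is drawn from them. For cry1a and cry4 the g-factor was 0.161.

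**Figure D3:**
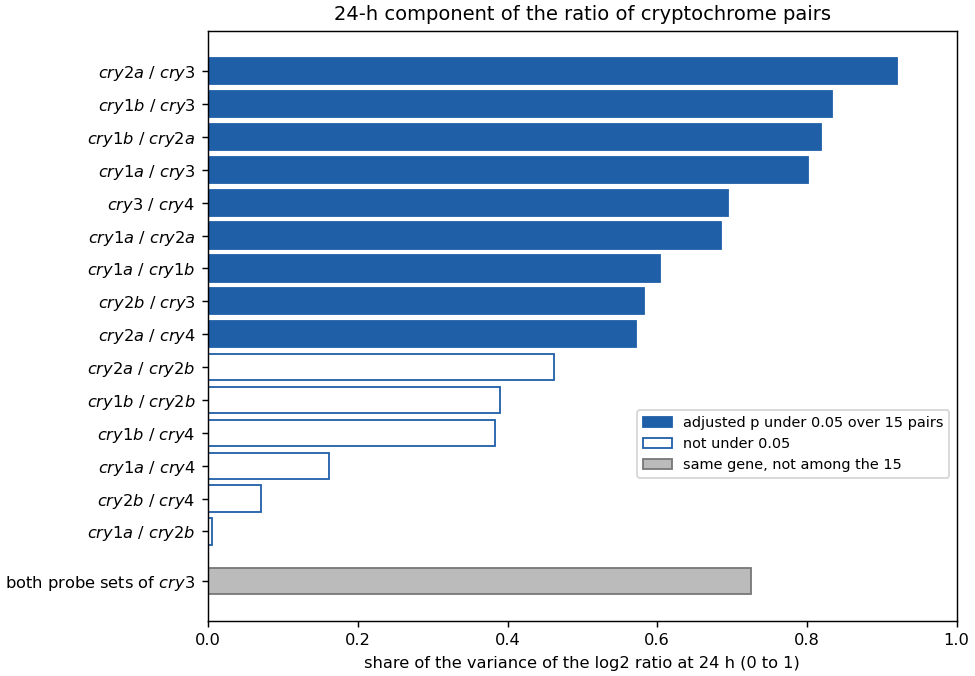
Share of the variance of the log2 ratio that lies at 24 h, from 0 to 1, for the 15 pairs of cryptochromes, with filled bars where the adjusted permutation p was under 0.05; the grey bar is the ratio of both probe sets of cry3. The bars run from 0.00478 for cry1a and cry2b to 0.920 for cry2a and cry3, and the grey bar of a single gene reaches 0.726.

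With each array left out in turn, 6 of the 9 pairs stayed under 0.05: cry2a with cry3, cry1b with cry2a, cry1b with cry3, cry1a with cry3, cry1a with cry2a and cry3 with cry4. All pairs used the named probe sets, and those of cry3 were not repeated with its second probe set. The pair cry3 and cry4 was lost without the last 4 arrays (adjusted p = 0.118 by permutation). cry1a and cry1b were no longer called without either array of CT14, either array of CT22, CT10 of the first cycle or CT18 of the second (adjusted p up to 0.0779 by permutation). cry2b and cry3 were lost without either array of CT22 or CT18 of the second cycle (up to 0.0754). cry2a and cry4 were lost in 8 of the 12 cases, with adjusted p up to 0.101, and remained called only without CT18 or CT6 of the first cycle or CT14 or CT6 of the second. Of the pairs not called in the main setting, cry2a with cry2b passed in 5 of 20 alternatives (adjusted p down to 0.00291 by permutation). cry1b with cry2b passed in 3 of them (down to 0.016). In both pairs cry2b lay below the filter. Since the ratio of both probe sets of cry3 reached a g-factor of 0.726, a pair that differs in fold alone cannot be told apart from a difference between probe sets. The called pairs of cry1a with cry2a and cry1b, of cry4 with cry2a and cry3, and of cry2b with cry3 had lower g-factors than this. A higher g-factor, as in cry1a with cry3 (0.801), does not lift this limit. It is a share of variance and not the size of a difference. The fitted peaks of both probe sets of cry3, CT20.2 and CT19.9, did not differ beyond their errors.

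The level of the cryptochromes did not differ detectably between the daily cycles. The difference of the second minus the first cycle on the log2 scale was -0.07 for cry2a (standard error 0.22), -0.10 for cry3 (0.23), -0.08 for cry1b (0.30), -0.25 for cry1a (0.24) and 0.06 for cry4 (0.41). Across all 11625 probe sets limma called 0 (0%) between the cycles at an adjusted p under 0.05, and 829 (7.13%) had an unadjusted p under 0.05. No cryptochrome was among them, the lowest unadjusted p being 0.315 for cry1a. A difference of the rhythm itself between the cycles was called for 0 probe sets (0%; 757, or 6.51%, at an unadjusted p under 0.05).

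Read within each cycle, cry2a peaked at CT9.80 with a 5.07-fold course in the second cycle and at CT7.87 with a 6.89-fold course in the first. cry3 peaked at CT19.5 (6.35-fold) in the second cycle and at CT21.0 (5.50-fold) in the first. cry1b peaked at CT23.9 (2.01-fold) in the second cycle and at CT23.8 (4.38-fold) in the first. None of these differences passed the test (adjusted p from limma between 0.766 and 0.916 over the 5 genes). A 12-h component, which a profile with a pair of maxima a day would show, was called for 0 probe sets (0%) by limma, with 310 (2.67%) at an unadjusted p under 0.05. Of the cryptochrome probe sets, the second one of cry3 was among the 310 (unadjusted p = 0.0339, adjusted p = 0.986 from limma), and cry1b lay just outside (unadjusted p = 0.0525).

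**Figure D4:**
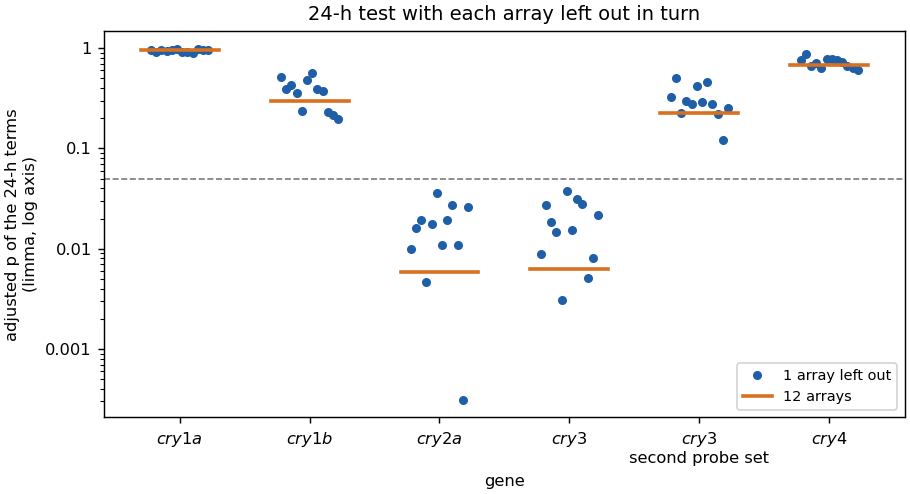
Adjusted p of the 24-h terms from limma (log axis) for the 6 cryptochrome probe sets that passed the filter; bars show the fit of all 12 arrays, points the fits with 1 array left out, and the dashed line is 0.05. All points of cry2a and cry3 lie below the line, with highest values of 0.0362 and 0.0376, and all points of the others lie above it.

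The genes that surround the cryptochromes in the clock were read from the same fit, in lists of 70 genes that were put together with earlier results of these data known. Of the 42 genes with a probe set of their own, 38 passed the filter, and 11 of these were called, against 0.516% of all probe sets. The median fold of the 38 tested genes was 1.50, against 1.40 for all probe sets tested. Among the activators, 1 of 6 was called: bmal1a, the partner of Clock, which peaked at CT7.57 with a fold of 10.7 (standard error 0.592 h, adjusted p = 0.0259 from limma). bmal1b (adjusted p = 0.0981 from limma), clock1a (0.443) and bmal2 (0.576) had fitted peaks at CT7.11, CT4.45 and CT8.27 but did not pass. Nor did clock1b and clock2, whose fitted peaks lay on the other side of the day at CT23.1 and CT23.2 (adjusted p from limma 0.922 and 0.755). Of the period genes only per2, the light-responsive partner of the cryptochromes, could be tested, with a fold of 2.01 (adjusted p = 0.258 from limma).

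Of the 26 genes listed in the accessory loops, 11 could be tested and 7 were called, against 0.516% of all probe sets. With fitted peaks near that of cry3 were ciarta, a repressor of Clock and Bmal, at CT20.1 with a fold of 27.9, bhlhe41, a repressor that competes at E-boxes, at CT20.0 with a fold of 15.4, and nr1d2b, a nuclear receptor of the REV-ERB family, at CT20.6 with a fold of 6.80 (adjusted p from limma 0.00026, 0.00144 and 0.00468). bhlhe40, the relative of bhlhe41, followed at CT23.0 with a fold of 21.3, and nfil3-6, a repressor at D-boxes, at CT23.5 with a fold of 4.14, beside cry1b at CT23.8 (adjusted p from limma 0.0181 for bhlhe40 and 0.0259 for nfil3-6). On the side of cry2a lay nfil3-5, another D-box repressor, at CT7.56 with a fold of 33.9, and rorcb, a nuclear receptor that activates bmal genes, at CT6.00 with a fold of 14.0 (adjusted p from limma 0.00125 for nfil3-5 and 0.0259 for rorcb).

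Of the genes that tag, modify or destroy cryptochrome protein, 3 of the 18 tested were called, against 0.516% of all probe sets. The median fold of this list was 1.35, not above the 1.40 of all probe sets tested. fbxl3a encodes the F-box protein that in mammals brings cryptochromes to their ubiquitin ligase. It had a fold of 2.31 (95% interval 1.74 to 3.08) with a peak at CT8.81, standard error 0.605 h, which lay within the errors of the peak of cry2a (adjusted p = 0.0276 from limma). cul1b, a scaffold of the same ligase, peaked at CT9.86 with a fold of 2.45 (adjusted p = 0.0406 from limma). csnk1db, a casein kinase that phosphorylates period proteins, peaked at CT21.7 with a fold of 2.00 (adjusted p = 0.0401 from limma). These calls were weak: leaving out arrays singly, that of fbxl3a was lost for 7 of the 12, and those of cul1b and csnk1db for 10. Of the other called genes, bmal1a was lost for 6 arrays, rorcb and nfil3-6 for 7 and bhlhe40 for 2, whereas nfil3-5, ciarta, bhlhe41 and nr1d2b were lost for 0.

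**Figure D5:**
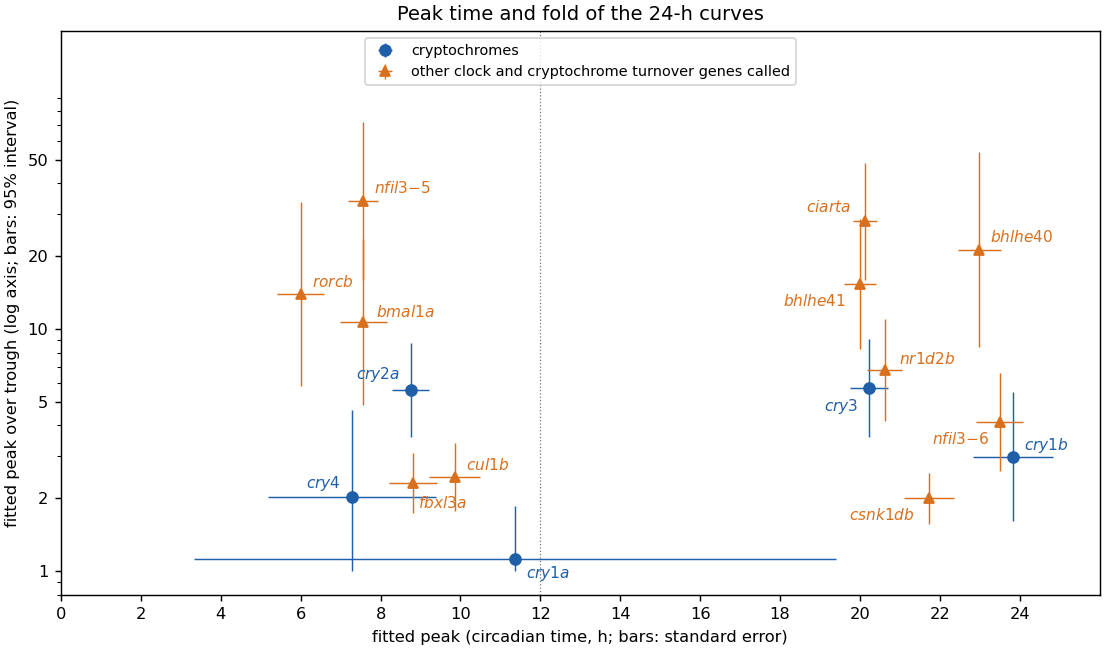
Fitted peak time (circadian hours, bars show the standard error) and fitted peak over trough (log axis, bars show the 95% interval, which ends at 1) of the 5 cryptochromes tested and of the 11 listed genes called by limma; the dotted line is the start of the subjective night. cry2a, at CT8.75, stands in time near fbxl3a (CT8.81), cul1b (CT9.86), bmal1a (CT7.57) and nfil3-5 (CT7.56), and cry3 beside ciarta, bhlhe41 and nr1d2b at CT20.2.

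For each cryptochrome the genes with the most similar profile were taken as the 3 with the highest Pearson correlation of log2 values over the 12 arrays, among 8292 probe sets of other genes with a single symbol. These are descriptions, since all genes share the same arrays and the highest of so many correlations are high by selection. cry3 ran with ciarta (r = 0.92), with cyp27c1 (0.92), the enzyme that makes vitamin A2, and with bhlhe41 (0.91). cry2a ran with ndrg1b (r = 0.94), with opn1lw1 (0.91), a red-sensitive cone opsin, and with rimkla (0.90). cry1b ran with sugt1 (r = 0.96), cyp2p6 (0.88) and nfil3-6 (0.86).

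cry4 ran with six7 (r = 0.86), a homeobox gene of photoreceptors, cog5 (0.84) and hmgb2a (0.84). cry1a ran with atf3 (r = 0.88), a stress-induced transcription factor, arpc3 (0.88) and scyl3 (0.87). cry2b, at its low values, ran with shha (r = 0.88), or30bw1 (0.82) and rps26 (0.81). None of the 9 partners of cry4, cry1a and cry2b was called by limma, with adjusted p from 0.397 upward. Of the 9 partners of cry3, cry2a and cry1b, 4 were not called either: ndrg1b (adjusted p = 0.126), cyp2p6 (0.141), rimkla (0.172) and sugt1 (0.471 from limma).

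On the array of CT6 of the second cycle, which carried the markers of skin, connective tissue and immune cells, the cryptochromes moved in different directions relative to CT6 of the first cycle. cry2a, cry1b and the named probe set of cry3 were lower, with 2409, 66.4 and 79.7 in the second cycle against 4045, 117 and 138 in the first. The second probe set of cry3 was higher, with 217 in the second cycle against 196 in the first. cry1a, cry4 and cry2b were higher too, with 111, 48.4 and 11.7 in the second cycle against 87.4, 35.5 and 5.12 in the first. Without this array cry2a had a fold of 6.64 (adjusted p = 0.000312 from limma) and cry3 of 5.67 (adjusted p = 0.00817). Without CT18 of the second cycle, the array with the highest neuron markers, the fold of cry2a was 5.71 (adjusted p = 0.0195 from limma) and that of cry3 5.43 (adjusted p = 0.0316). Without the last 4 arrays the fold of cry2a was 6.23 (adjusted p = 0.00794) and that of cry3 6.24 (adjusted p = 0.0319 from limma).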

How the data were processed

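Each of 12 Affymetrix arrays was hybridized with amplified RNA from a pool of 12 pineal glands. The authors deposited a linear signal intensity per probe set and array, after normalizing array by array with GCOS; the submitters' processing notes also name MAS5, with no version given. Here 115 control probe sets were dropped, log2 intensities were quantile-normalized in limma 3.58.1 (R 4.3.3), and the filter kept 11625 of 15502 probe sets, those with a highest value above the lowest 25%. A normalized intensity is 2 to the power of such a value. Of the probe sets, 10795 had 1 gene symbol in the platform's annotation, 135 several and 4572 none, and symbols were updated to RefSeq.

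Cosine and sine terms of 24 h were fitted to all 12 arrays (9 residual degrees of freedom, eBayes with variance trend) and tested by the moderated F test. The fold divides the fitted peak by the trough, and peak errors come from the delta method. Cycle and 12-h terms were added to this fit, and an interaction of rhythm and cycle was added after the data had been seen. The g-factor used 1000 shuffles per probe set, and pairs were tested with numpy 2.4.6 in Python 3.11.15. Both tests were tested on simulated data.

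The members and the gene lists were chosen with earlier results of these data known. Named were the 6 members with all probe sets, list genes that were called, and 3 genes per member by correlation. Of list genes not called, up to 3 per list with the lowest p were planned. Departing from this, all activators were named, and no uncalled gene of the accessory loops. Alternatives covered the normalization, filter, offset, scale, variance model, arrays left out, covariates, model and threshold. A replicate number stands for a daily cycle. The second-minus-first differences of any 2 circadian times were correlated over probe sets (15 combinations): r lay between -0.300 and 0.225 and exceeded 0.1 in 5, so the numbers were not taken to pair the arrays. Scanner files, detection calls and sequences were not used here.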

Additional observations from a re-analysis of the deposited data

How the results depend on the processing

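The calls of cry2a and cry3 held in all alternatives that kept their probe sets on the log2 scale with cosine terms: 2 cryptochromes were called with each array left out and under every normalization, filter, offset, variance model and covariate. On the linear scale 0 were called, with circadian time as a factor 1, and with the other probe sets of the same genes 0. Only cry2a and cry3 had another probe set, and that of cry2a did not pass the filter, so only that of cry3 was tested. With an offset of 32 added to the intensities the fitted fold was 5.44 for cry2a, 4.35 for cry3 and 2.03 for cry1b. In the main setting these folds were 5.59, 5.73 and 2.97. The number of all probe sets called depended more on the processing than the calls of cry2a and cry3. It was 60 in the main setting, 29 with median centring, 19 on the linear scale, 17 without the variance trend, 133 without the last 4 arrays, 27 with a linear trend, 12 with circadian time as a factor and 103 at a false discovery rate of 0.10. Leaving out single arrays gave 14 (without CT10 of the first cycle) to 103 (without CT6 of the second). Of the listed clock and turnover genes, 11 were called in the main setting, 7 with median centring, 4 on the linear scale, 4 without the variance trend, 7 with a linear trend, 5 with circadian time as a factor, and 4 to 12 with single arrays left out. Between the cycles, 0 to 4 probe sets were called with single arrays left out, the 4 without CT22 of the second cycle. With the daily cycle as a replicate block 53 probe sets were called, and cry2a and cry3 had adjusted p-values of 0.0112 from limma. The number of called pairs was then 9, as in the main setting. The number of called pairs ran from 6 to 11 over the other alternatives. With 1 pool per time and cycle the precision is low: cry4, with a fold of 2.02, had an interval from 1 to 4.65. The cause of the differences between settings was not tested.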

Other observations

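The photolyases, the DNA repair enzymes from which cryptochromes descend, and relatives of them were also on the arrays. cry5, the zebrafish photolyase that repairs the (6-4) lesion of ultraviolet light, lay between 57.9 and 259 and had a fold of 1.96 (95% interval 1.04 to 3.68) with a peak at CT4.19, standard error 1.67 h (adjusted p = 0.582 from limma). cpdp, the photolyase of cyclobutane dimers, lay between 46.5 and 122 with a fold of 1.33 (95% interval 1 to 2.14, adjusted p = 0.788 from limma). The probe set of cry-dash did not pass the filter. Neither of the 2 photolyase genes tested was thus called. Among the kinases and ligase subunits of cryptochrome turnover that were not called, those with the lowest p were csnk1da, a casein kinase (fold 1.48, peak CT21.9, adjusted p = 0.527 from limma), cul4b, a cullin scaffold (fold 1.41, adjusted p = 0.538), and gsk3ab, a glycogen synthase kinase (fold 1.44, adjusted p = 0.545).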
